A study of Mus musculus with 2 samples.

Results

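The 35 genes described here make fatty acids and sterols or control that synthesis. They were chosen by symbol, and all 35 were among the 31053 genes counted in both libraries. Of these, 15 formed a fatty acid arm (13 enzymes that supply, build, desaturate or elongate fatty acids, with Lpin1 and Gpam of glycerolipid synthesis), 17 formed a mevalonate arm (16 enzymes from Hmgcs1 to Ebp, with the sterol carrier gene Stard4), and 3 were regulators (Srebf1, Srebf2 and Insig1). The question was in which lung cells the genes were read and how their levels differed between lungs with and without deletion of Lkb1 in cells that had expressed Nkx2.1.

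Total lung cells were taken from mice aged 5 weeks, and each library pooled 3 mice, so there was 1 library per genotype. The control mice were Lkb1f/f, which carry loxP sites in Lkb1 (the gene symbol is Stk11) and no named Cre. The other mice were Nkx2.1 Cre;Lkb1f/f, called Cre below. They carry the same floxed allele with a Cre driven by Nkx2.1, a transcription factor gene of the lung epithelium that is not a gene of blood or stromal cells.

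Both arms are switched on by sterol regulatory element binding proteins, which stay in the endoplasmic reticulum with Insig1 while sterols are plentiful and move to the nucleus when sterols fall. Srebf1 products act mainly on fatty acid genes and Srebf2 products on sterol genes. In the lung, alveolar type 2 (AT2) cells are known for fatty acid synthesis, since surfactant is mostly saturated phosphatidylcholine. Alveolar macrophages take up and degrade surfactant and handle its cholesterol. LKB1 activates the kinase AMPK, which inhibits acetyl-CoA carboxylase, the product of Acaca and Acacb.

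The 2 libraries held 74219499 unique molecular identifiers (UMIs) in 13587 control barcodes and 81598779 in 16821 Cre barcodes, and 12481 and 14689 cells were kept, with medians of 3619 and 3253 UMIs. Cells were grouped into 23 classes from marker genes, each named "-like", and 3.87% of control and 5.90% of Cre cells stayed unnamed. The libraries shared 68 barcodes, of which 58 were kept in both. As a check of the labels, Stk11 stood at 49.5 CPM (UMIs of the gene in each 1000000 UMIs of the class) in control and 30.2 in Cre AT2-like cells, and at 48.4 and 46.5 in alveolar macrophage-like cells. In AT1-like cells it stood at 70.3 and 42.6 CPM and was called lower. That ratio was 0.606 (0.358 to 1.04), on 25 control and 39 Cre UMIs, an interval that covers 1. In the other epithelial classes it stood at 15 and 16.5 CPM (club-like) and 70.2 and 61.8 (ciliated-like). Their ratios were 1.10 (0.824 to 1.48) and 0.881 (0.637 to 1.22). These 3′ tags need not lie in the deleted exons, so a remaining level does not measure recombination. Levels below are CPM of the summed UMIs of a class. A member was measured in a class at 50 or more UMIs over both libraries, and was called higher or lower when its log2 ratio, Cre over control with 5 CPM added to each, lay 1.5-fold or more from the median over all genes of that class. That median lay between -0.07 and 0.48 in the 22 classes other than erythroid-like cells, in which it was 1.06. With 1 library per genotype there was no test, and the intervals given are 95% exact Poisson intervals that cover counting error only.

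The sequences in front of 3 genes of the mevalonate arm are shown because sterol response factors act near the start site and because the arm is followed step by step in macrophages below. The windows come from RefSeq on GRCm38.p6, run from 250 bases before to 50 after the start, read 5′ to 3′ on the gene's strand and carry each searched motif in capitals. Hmgcs1 (cytosolic HMG-CoA synthase, the entry to the arm) has the window chr13:119690101-119690400 on the plus strand. Idi1 (isopentenyl diphosphate isomerase) has chr13:8885356-8885655 on the plus strand. Hsd17b7 (a sterol keto-reductase) has chr1:169969156-169969455 on the minus strand.
Hmgcs1: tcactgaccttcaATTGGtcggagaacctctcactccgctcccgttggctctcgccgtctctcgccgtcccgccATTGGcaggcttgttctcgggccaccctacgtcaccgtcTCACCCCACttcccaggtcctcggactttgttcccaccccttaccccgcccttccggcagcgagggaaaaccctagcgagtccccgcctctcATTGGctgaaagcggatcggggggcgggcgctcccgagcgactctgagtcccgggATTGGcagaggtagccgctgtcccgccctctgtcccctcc
Idi1: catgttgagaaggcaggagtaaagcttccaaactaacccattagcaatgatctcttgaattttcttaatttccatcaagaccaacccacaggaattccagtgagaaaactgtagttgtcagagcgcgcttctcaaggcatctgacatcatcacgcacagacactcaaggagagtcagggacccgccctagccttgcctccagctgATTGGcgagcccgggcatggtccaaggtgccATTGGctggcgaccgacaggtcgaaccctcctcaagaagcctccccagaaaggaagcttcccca
Hsd17b7: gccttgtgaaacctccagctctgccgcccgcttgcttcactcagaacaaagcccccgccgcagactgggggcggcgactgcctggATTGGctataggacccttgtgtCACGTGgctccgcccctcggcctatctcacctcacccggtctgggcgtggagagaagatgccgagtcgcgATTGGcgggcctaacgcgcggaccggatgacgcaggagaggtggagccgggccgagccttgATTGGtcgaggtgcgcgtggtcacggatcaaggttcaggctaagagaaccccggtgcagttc

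The search covered 3 motifs on both strands, with overlapping matches counted. They were the sterol element TCACNCCAC, the E-box CACGTG, and the NF-Y factor's box CCAAT, which in these windows is read from the other strand as ATTGG. Windows were found for 28 of the 35 members. CCAAT lay in a window of all 13 matched genes of the mevalonate arm, of 8 of 12 in the fatty acid arm and of all 3 regulators, against 41.1% of 27025 genes and 42.6% of the 7386 genes with a window that were measured in alveolar macrophage-like cells. CACGTG lay in windows of 5 members (Dhcr7, Elovl5, Hsd17b7, Insig1 and Sc5d), against 8.09% of all genes and 12.8% of those measured in alveolar macrophage-like cells, while the 5 are 17.9% of the matched members. TCACNCCAC was found for Hmgcs1 alone, as TCACCCCAC, against 1.44% of all genes. Hmgcs1 was not called higher in alveolar macrophage-like cells. Of the 7 matched mevalonate genes that were, 0 held TCACNCCAC, 3 held CACGTG and 7 held CCAAT. A match describes the letters of the window and does not show a bound site.

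AT2-like cells had the highest level of 15 members in the control library and of 14 in the Cre library, and 14 members were the same in both. Over all members the class with the highest level was the same in both libraries for 27 of 35. The plot of levels by class shows the AT2-like column brightest in the fatty acid arm, whose summed level was 7142 CPM in control AT2-like cells and 155 in control neutrophil-like cells, the lowest of the 22 classes. The mevalonate arm was spread more evenly, from 204 CPM in B-like to 1086 in AT2-like control cells. Across 22 classes the correlation of each member's log2 level with the mean of the rest of its arm had a median of 0.57 in the fatty acid arm and 0.62 in the mevalonate arm of the control library, and 0.48 and 0.71 in the Cre library. These points share libraries and depth and are given as a description.

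**Figure D1:**
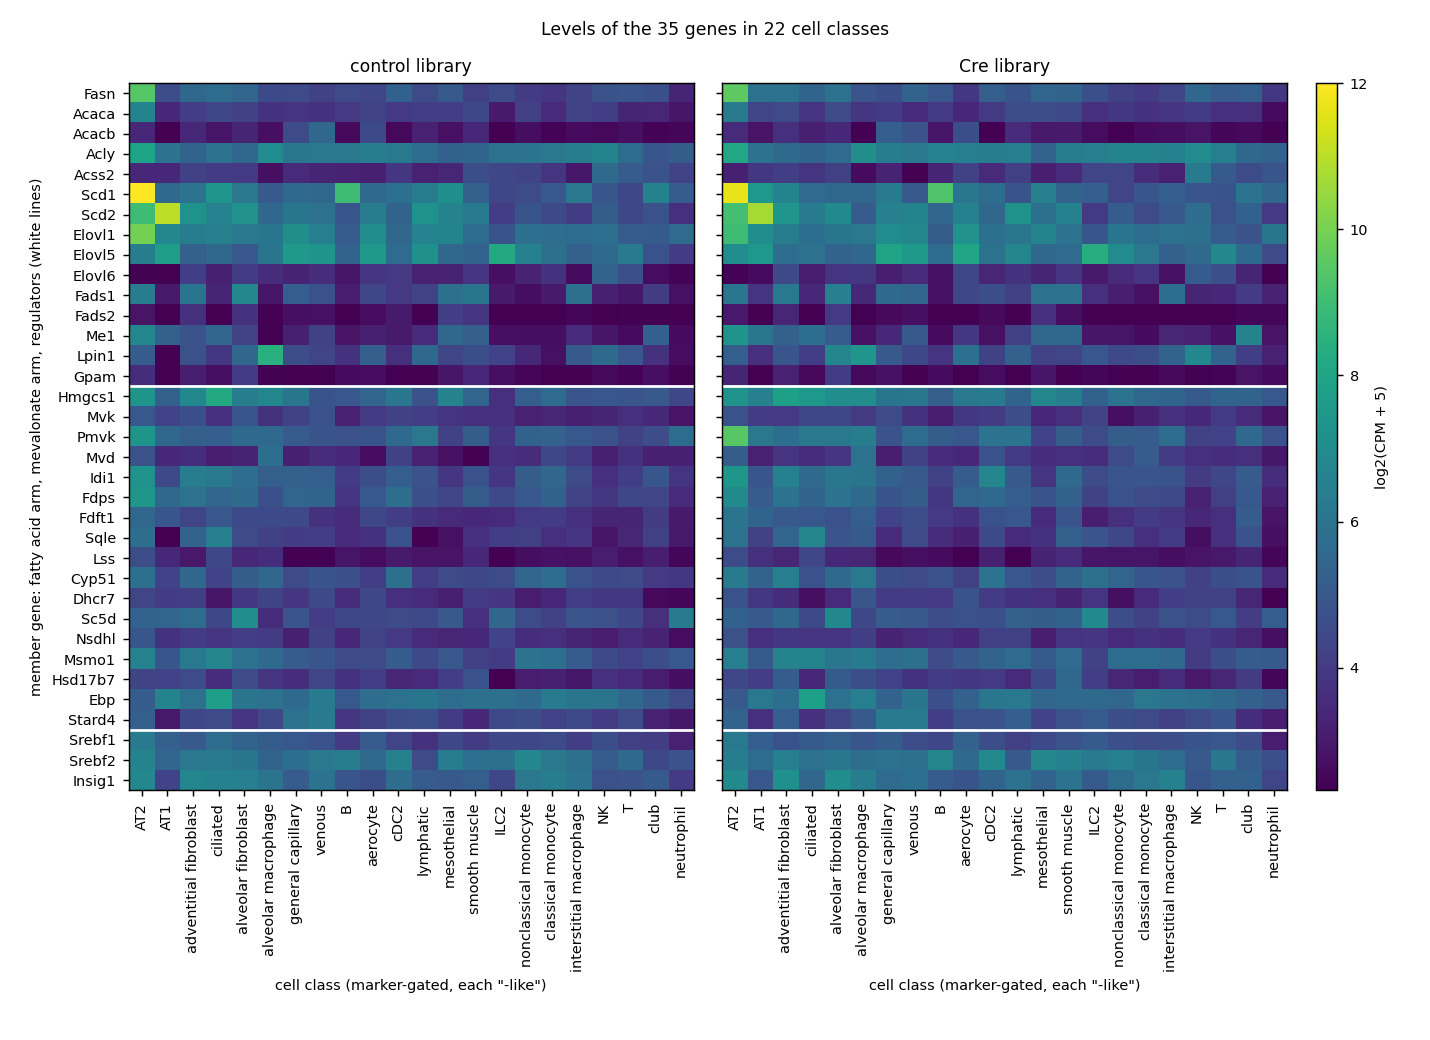
Levels of the 35 members (rows) in 22 cell classes (columns) of the control and the Cre library, as log2(CPM + 5) of summed UMIs. Scd1 reaches 4287 CPM in control AT2-like cells, Scd2 2104 CPM in control AT1-like cells, and the mevalonate arm between the white lines has no single bright column.

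Some members were highest elsewhere. Scd2, a stearoyl-CoA desaturase, stood at 2104 CPM in control and 1664 in Cre alveolar type 1 (AT1)-like cells, against 498 and 548 in AT2-like cells. Scd1, the desaturase of AT2-like cells, also stood at 488 and 634 CPM in B-like cells. Lpin1, a phosphatidic acid phosphatase and transcriptional coregulator, was highest in alveolar macrophage-like cells, with 345 CPM in control and 160 in Cre. Hmgcs1 was highest in control ciliated-like cells (286 CPM) and in Cre adventitial fibroblast-like cells (220 CPM). Ciliated-like cells also led for Ebp (208 and 215 CPM) and Sqle (88.4 and 101), and their Msmo1 level (102 and 96.4) lay within counting error of that of the next class in each library.

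Several fatty acid genes were led by lymphoid, stromal or endothelial classes. Elovl5 was highest in ILC2-like cells, at 288 CPM in control and 320 in Cre, and those levels exceeded the next class beyond counting error. Acss2 was highest in NK-like cells (46.1 and 76.3 CPM), as was Elovl6 (36.2 and 29.8), which elongates palmitate to stearate and was nearly absent from AT2-like cells. Fads1, a desaturase of polyunsaturated fatty acids, was highest in alveolar fibroblast-like cells, at 107 and 88.5 CPM. Acacb, the carboxylase at the mitochondrial membrane, was highest in endothelial classes, with 43.6 CPM in control venous-like and 32.2 in Cre general capillary-like cells. Fads2 and Gpam stayed at or under 12.1 CPM in every class of both libraries. In the mevalonate arm Mvd was highest in alveolar macrophage-like cells (51.4 and 56.5 CPM) and Stard4 in venous-like cells (72.0 and 76.9 CPM), level with general capillary-like cells within counting error. Mvk, Lss, Nsdhl, Cyp51, Dhcr7 and Hsd17b7 had no class above the next beyond counting error in either library, nor did Srebf2 and Insig1.

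In droplet data free RNA gives UMIs in cells that do not express a gene, and Sftpc, the surfactant protein C gene of AT2 cells, was taken as its measure. Outside AT2-like cells Sftpc stood between 405 and 4971 CPM in control and between 562 and 10855 in Cre classes. The 10855 was in AT1-like cells, and the next Cre class, adventitial fibroblast-like, stood at 2762. Whether all of this Sftpc was free RNA was not tested. Each member's AT2-like level times the ratio of Sftpc in a class to Sftpc in AT2-like cells gave the level that AT2 RNA alone would bring. For Scd1 in B-like cells that level was 14.7 CPM in control and 15.7 in Cre, far under the 488 and 634 observed. In T-like cells it was 11.3 and 12.4, against 16.1 and 23.8 observed. Scd1 was 1.5-fold or more from the class median in 8 of the 20 classes in which it was measured, lower in 6 of them.

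In AT2-like cells (1432 control and 1742 Cre cells) the fatty acid arm differed little in its median member. Its summed level was 7239 CPM in control and 5813 in Cre in the larger cluster of the class, and 2763 and 4324 in the shallow cluster described below. Of its 14 measured members 0 were higher and 2 lower, against 4.18% of all 10934 measured genes higher and 3.62% lower, and the median was -0.08 from that of all genes. Elovl1 and Acaca were the 2 lower members. Fasn, which carries out the assembly of palmitate, stood at 690 CPM in control and 779 in Cre cells, a ratio of 1.13 (1.10 to 1.16), which matched the shift of all genes. Acly, which makes cytosolic acetyl-CoA from citrate, stood at 242 and 265 CPM.

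Elovl1, an elongase of saturated very long chain fatty acids (chr4:118428093-118432953), stood at 1010 CPM in control and 496 in Cre AT2-like cells. The Cre level was 0.491 of the control level (0.477 to 0.505), and Elovl1 was the lowest member relative to all genes, at -1.19. Cdc20, which overlaps Elovl1 on the other strand, stood at 2.82 and 3.42 CPM there. Acaca, the cytosolic acetyl-CoA carboxylase, stood at 99.5 and 73.4 CPM, a ratio of 0.737 (0.679 to 0.80), and lay just past the threshold at -0.59. It lay inside the threshold at -0.34 after thinning to 1000 UMIs and at -0.56 when cells were named one by one. Scd1 (chr19:44394455-44407879), the most abundant member, stood at 4287 CPM in control and 3238 in Cre, a ratio of 0.755 (0.746 to 0.765), and lay just inside the threshold at -0.58. A shallow cluster of the class (201 control and 124 Cre cells) went the other way for Scd1, with 1493 and 2971 CPM, and its summed fatty acid arm stood at 2763 and 4324 CPM. These 3 genes were the lowest of the arm. The members farthest above the class median were Elovl5, a polyunsaturated fatty acid elongase, at 81.4 and 127 CPM (0.44 over the median), and Me1, the NADPH-supplying malic enzyme, at 105 and 155 CPM (0.37). Elovl6 had 2 and 5 UMIs and was not measured.

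The mevalonate arm of AT2-like cells had a median of -0.10 from all genes. Of its 17 members 1 was higher and 1 lower, against 4.18% of genes higher and 3.62% lower. Pmvk, phosphomevalonate kinase (chr3:89454541-89469013), stood at 154 CPM in control and 715 in Cre cells, a ratio of 4.64 (4.43 to 4.87). The step before it, Mvk, stood at 25.9 and 22.2 CPM, and the step after it, Mvd, at 21.6 and 30.9. Pmvk stood apart from its neighbours in the pathway, and the summed level of the arm, 1086 and 1664 CPM, differed mainly by Pmvk. Fdps, farnesyl diphosphate synthase, stood at 164 and 120 CPM and was lower at -0.61. Idi1 stood at 148 and 167 CPM and Hmgcs1 at 155 and 152. The regulators Srebf1 (75.3 and 71.1 CPM), Srebf2 (95.1 and 77.9) and Insig1 (109 and 119) were all between the thresholds.

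Pmvk was also higher in ciliated-like cells (32.2 and 67.6 CPM), alveolar macrophage-like cells (44.1 and 78.9) and interstitial macrophage-like cells (26.4 and 49.2). In club-like cells it stood at 19.5 and 44.3 CPM, 0.53 over a class median that was itself 0.48. It was lower in neutrophil-like cells, at 48.3 and 22.1 CPM. The level that free AT2 RNA would bring was 4.39 CPM in Cre ciliated-like, 5.13 in Cre alveolar macrophage-like and 4.95 in Cre interstitial macrophage-like cells.

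Cre AT2-like cells were split by Sox9, a transcription factor gene of the embryonic lung tip: 795 cells had a Sox9 UMI and 947 had none. A Sox9 UMI was found in 45.6% of these cells, in 0.279% of AT2-like cells of the control library in 0.263% of Cre B-like cells, at medians of 7872, 10199 and 1986 UMIs per cell. Scd1 stood at 2074 CPM in cells with Sox9 and 4445 in cells without, beside 4287 in control AT2-like cells. Elovl1 stood at 323 and 675 CPM, beside 1010 in control cells. The 2 genes were thus both lower in cells with a Sox9 UMI, with ratios of 0.467 (0.458 to 0.476) and 0.478 (0.454 to 0.502). Other members differed less. Among them Scd2 (0.725, 0.693 to 0.759), Fads1 (0.715, 0.626 to 0.817) and Hsd17b7 (0.648, 0.490 to 0.852) were lower with Sox9. Me1 (1.24, 1.14 to 1.35) and Insig1 (1.16, 1.06 to 1.28) were higher. After the thinning given below, the intervals of these smaller differences covered 1. Pmvk did not follow Sox9, at 726 and 704 CPM, and neither did Fasn, at 766 and 794 CPM. Cells with Sox9 were deeper, with a median of 8446 UMIs against 7394. After thinning to 1000 UMIs per cell, which left 250 cells with a Sox9 UMI (15% of 1670) and 1420 without, the ratio was 0.512 (0.464 to 0.563) for Scd1 and 0.501 (0.384 to 0.643) for Elovl1. The cells come from 1 library and are not replicates.

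**Figure D2:**
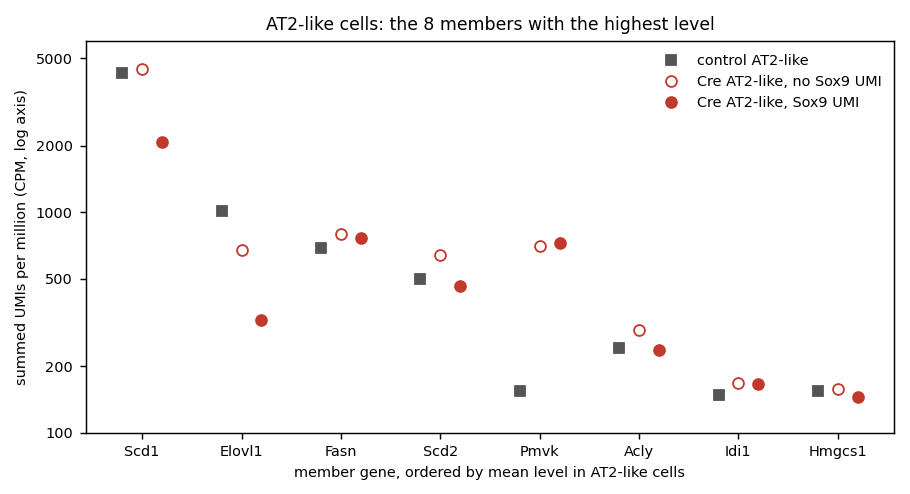
CPM of summed UMIs (log axis) of the 8 members with the highest level in AT2-like cells, in control cells and in Cre cells without and with a Sox9 UMI. Counting intervals are not drawn. Scd1 and Elovl1 are lowest in Cre cells with Sox9, and Pmvk is as high in both kinds of Cre cell.

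Per cell, after thinning to 1000 UMIs, control AT2-like cells held a mean of 6.98 UMIs of the fatty acid arm (SD 5.86 over 1334 cells) and Cre cells 5.94 (SD 5.28 over 1670 cells). For the mevalonate arm the means were 1.06 and 1.63. The distributions overlapped widely between the libraries. A Pmvk UMI was found in 12% (10.3 to 13.9) of control cells and 40.1% (37.8 to 42.5) of Cre cells, with exact binomial intervals, and in 2.77% and 2.92% of B-like cells thinned alike. Unthinned, the shares were 54.4% and 80.5% of AT2-like and 7.04% and 6.83% of B-like cells. For Elovl1 the thinned shares in AT2-like cells were 53.7% and 32.3%, and for Fasn 48.1% and 51.8%, while unthinned they were 89.7% and 77.4% for Elovl1 and 88.1% and 90.8% for Fasn. Cells too shallow to thin numbered 98 in control and 72 in Cre. The AT2 markers themselves summed to 0.746 of the control level in Cre AT2-like cells, with 1 of 12 higher and 4 lower. Erythroid markers summed to 133 and 588 CPM and alveolar macrophage markers to 74.5 and 229 CPM, and their part in the values above was not tested.

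Of the 41 other genes of the pathway that were listed, 13 sterol genes were measured in AT2-like cells with 0 higher and 1 lower, the cholesterol exporter Abca1 (10.2 and 2.21 CPM). Of 16 genes of fatty acid handling and surfactant lipid, 0 were higher and 4 lower. Among all genes measured in AT2-like cells 4.18% were higher and 3.62% lower. Lpcat1, which forms the saturated phosphatidylcholine of surfactant, stood at 1375 and 884 CPM. Pcyt1a, the rate-limiting enzyme of phosphatidylcholine synthesis, stood at 66.0 and 38.4 CPM. Agpat2, an acyltransferase that makes phosphatidic acid, stood at 53.7 and 32.9 CPM, and Fabp5, a fatty acid binding protein, at 1136 and 592. The 8 measured genes of SREBP control were all between the thresholds.

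In alveolar macrophage-like cells, 481 of the control and 968 of the Cre library, the 2 arms differed. In the mevalonate arm 11 of 17 measured members were higher and 0 lower, against 5.08% of 9276 measured genes higher and 3.63% lower. The median of the arm lay 0.70 above that of all genes, and its summed level was 504 CPM in control and 776 in Cre. In the fatty acid arm 0 of 10 measured members were higher and 1 lower, with a median of 0.18. These macrophages are not cells of the Nkx2.1 lineage.

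Of the 7 genes from Hmgcs1 to squalene, 4 were higher. Pmvk is given above. Idi1 (chr13:8885501-8892451) stood at 33.1 CPM in control and 60.9 in Cre, a ratio of 1.84 (1.53 to 2.22). Fdps (chr3:89093588-89101959) stood at 21 and 46.2 CPM, a ratio of 2.20 (1.75 to 2.78). Fdft1, squalene synthase, stood at 17.8 and 32.1 CPM, while Ctsb, an abundant macrophage protease gene that overlaps it on the other strand, stood at 744 and 965. Hmgcs1 (104 and 130 CPM), Mvk (8.45 and 10.7) and Mvd (51.4 and 56.5) were above the class median and between the thresholds.

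The steps from squalene to cholesterol were higher in 6 of 9 genes. Sqle, squalene epoxidase and a rate-limiting enzyme, stood at 13.7 CPM in control and 28.6 in Cre, a ratio of 2.09 (1.57 to 2.81). Hsd17b7 (chr1:169949535-169969241), shown above with 3 CCAAT matches and 1 E-box, stood at 8.68 and 20.3 CPM, a ratio of 2.34 (1.65 to 3.42). Sc5d, sterol desaturase, stood at 7.08 and 16.3 CPM, a ratio of 2.30 (1.55 to 3.50). These were the 3 largest ratios after the squalene step. Cyp51, the lanosterol demethylase, stood at 40.7 and 70.0 CPM, Msmo1, the sterol methyl oxidase, at 45 and 72.7, and Dhcr7, which forms cholesterol in the last step, at 14.8 and 24.1. Ebp, a sterol isomerase, stood at 58.3 and 84.0 CPM and lay just inside the threshold at 0.56. Lss, lanosterol synthase, was the only member of the arm with a lower level in Cre, at 7.08 and 5.28 CPM with a ratio of 0.745 (0.465 to 1.21). Nsdhl stood at 11.7 and 12.2 CPM. Stard4 (16.9 and 27.7 CPM), which carries cholesterol between membranes, was higher.

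**Figure D3:**
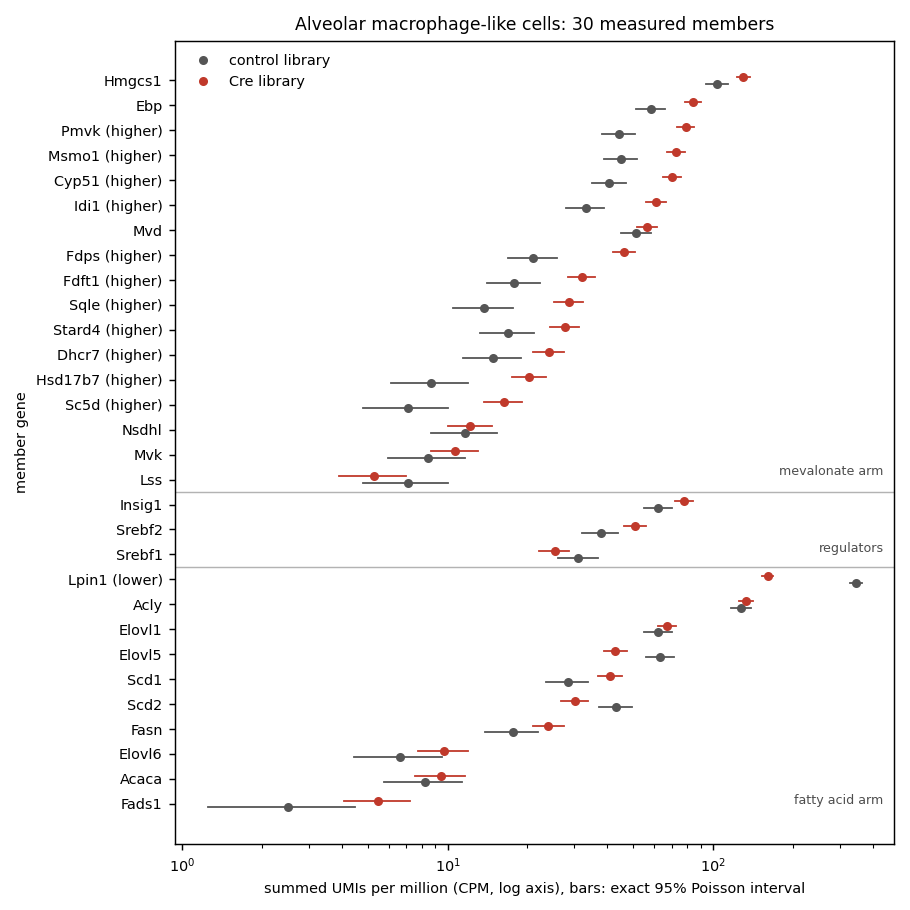
CPM of summed UMIs (log axis) of the 30 members measured in alveolar macrophage-like cells, with exact 95% Poisson intervals, in the control and Cre libraries. In the mevalonate arm 16 of 17 Cre levels lie above the control level, while Lpin1 is at 345 CPM in control and 160 in Cre.

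Lpin1 (chr12:16535669-16610966) stood at 345 CPM in control and 160 in Cre macrophages, a ratio of 0.465 (0.432 to 0.50). It was the only lower member. Fasn stood at 17.6 and 24.0 CPM, Scd1 at 28.3 and 41.0, Acly at 127 and 133, and Scd2 at 42.9 and 30.1, all between the thresholds. Free AT2 RNA would bring 10.5 CPM of Scd1 to control and 23.2 to Cre macrophages. For the mevalonate arm that level was at most 5.13 CPM in Cre macrophages (Pmvk) and at most 1.2 for the other 16 genes. The regulators Srebf2 (37.7 and 50.9 CPM), Insig1 (61.9 and 77.7) and Srebf1 (31.1 and 25.3) were between the thresholds.

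Sterol genes outside the 35 also differed in alveolar macrophage-like cells, and those given here were named after their values were seen. Soat1, which esterifies cholesterol, stood at 181 CPM in control and 264 in Cre and was higher. Abca1 and Abcg1, which export cholesterol, stood at 104 and 45.8 CPM and at 1698 and 977 CPM and were lower. Mylip, a ubiquitin ligase, stood at 120 and 45.5 CPM and was lower too. Of all genes measured in this class 5.08% were higher and 3.63% lower. Abca1, Abcg1 and Mylip are among the textbook targets of the sterol-sensing liver X receptors. So are Scd1, Fasn and Srebf1, which were between the thresholds in these cells. The full set of targets was not examined, and the activity of the receptors was not tested. Abcg1 is also among the 13 markers of the class and counts among the 7 lower ones below. Of 15 measured fatty acid genes, Fabp5 was higher (570 and 1416 CPM) and Dgat1, which makes triglyceride, lower (76.8 and 31.4).

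Other genes of these macrophages differed as well. Of the 13 alveolar macrophage markers 7 were lower and 1, Chil3, was higher, at 10362 and 25045 CPM. Cidec, a lipid droplet gene in that list, stood at 402 and 89.1 CPM. AT2 markers summed to 774 and 1603 CPM and erythroid markers to 235 and 636 CPM, while neutrophil markers summed to 1298 and 257 CPM. Classical monocyte markers, a list that also holds Chil3, summed to 10906 and 26730 CPM, with 3 of 4 measured higher. Interstitial macrophage markers summed to 795 and 905 CPM, with 6 of 9 measured higher and 2 lower. The cDC2 markers summed to 28.8 and 133 CPM and nonclassical monocyte markers to 709 and 426 CPM. Their part in the arm's values was not tested. The depth of the class was similar, with medians of 8963 and 9336 UMIs. In cells of 5000 to 10000 UMIs (261 control, 406 Cre) 10 of 15 measured mevalonate members were higher and 0 lower, and in cells of 10000 to 20000 UMIs (179 and 390) 10 of 16 were higher and 0 lower. The count also depends on the settings: it was 4 of 17 with 20 CPM added, 1 of 17 at a 2-fold threshold and 2 of the 7 members still measured after thinning every cell to 1000 UMIs. Thinned to 5000 UMIs, 14 of 16 members were higher.

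**Figure D4:**
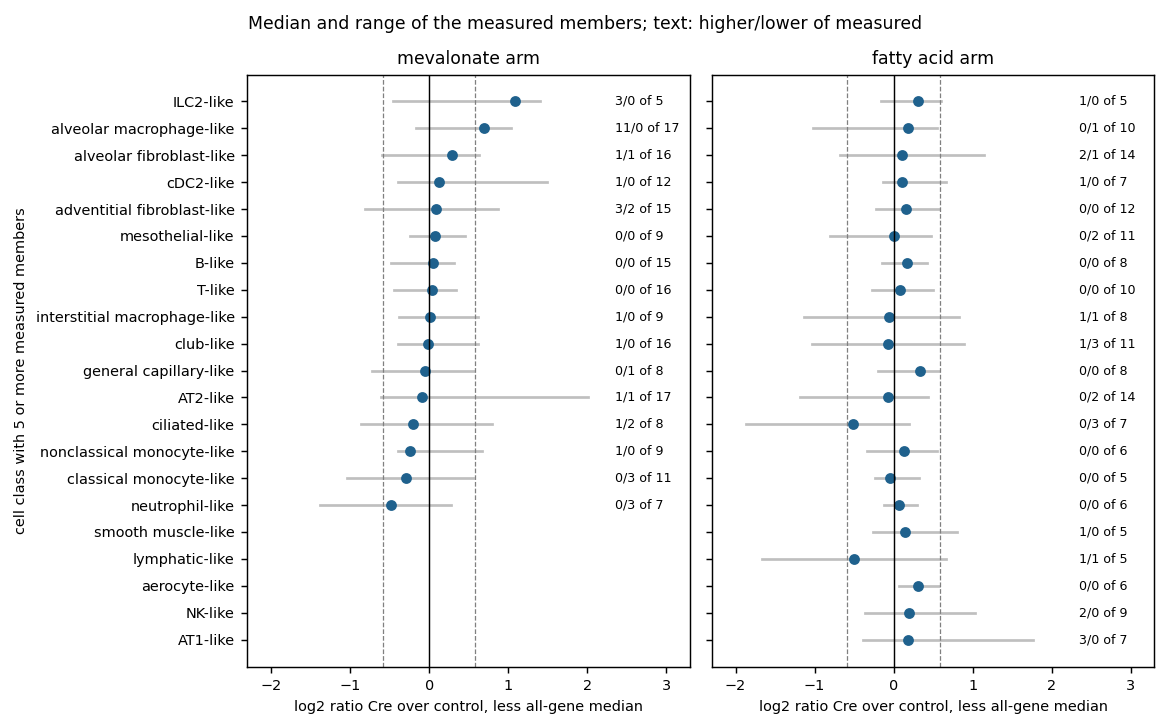
Median (point) and range (bar) of the measured members' log2 ratio, Cre over control, less the all-gene median, per cell class with 5 or more measured members, for each arm. The dashed lines mark 1.5-fold, and the text gives members higher/lower of those measured. The mevalonate arm is above the upper line in alveolar macrophage-like cells (0.70). The point for ILC2-like cells (1.08) rests on 5 members, of which Hmgcs1, Cyp51 and Stard4 were measured only through their Cre level.

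AT1-like cells, 124 in control and 327 in Cre, were shallow, and 11 of 35 members were measured. Of all 3974 measured genes 11.7% were higher and 8.08% lower. The members called higher were Scd1, Fasn, Me1 and Hmgcs1, but Fasn (7 control and 52 Cre UMIs), Me1 (12 and 59) and Hmgcs1 (12 and 80) reached the minimum of 50 UMIs only through their Cre level, so no count of members is read here. Scd1 stood at 45 CPM in control and 172 in Cre, and Fasn at 19.7 and 56.8. Sftpc stood at 2399 CPM in control and 10855 in Cre AT1-like cells, and its source there was not tested. The AT2-like level scaled by this Sftpc was 46.3 and 226 CPM for Scd1 and 7.44 and 54.4 for Fasn. The Cre level of Scd1 was thus under that level and that of Fasn 56.8 against 54.4. Hmgcs1 stood at 33.8 and 87.4 CPM, over scaled levels of 1.67 and 10.6, and Me1 at 33.8 and 64.5 CPM, over 1.13 and 10.8. AT2 markers summed to 3086 CPM in control and 13909 in Cre AT1-like cells and erythroid markers to 321 and 10965 CPM, and their part in Hmgcs1 and Me1 was not tested. When cells were named one by one from their markers, Scd1 was lower, at -0.36 against 1.76.

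**Figure D5:**
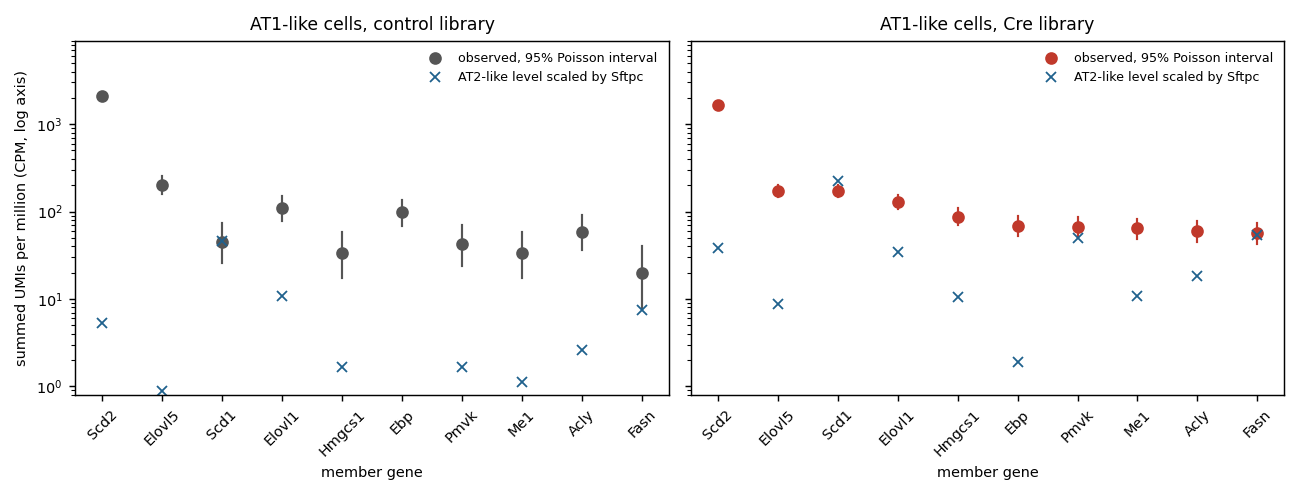
Observed level (points, exact 95% Poisson interval) of the 10 members of the arms measured in AT1-like cells, and the level that AT2-like RNA scaled by Sftpc would bring (crosses), on a log axis in CPM. In the Cre library the cross of Scd1 lies above its point (226 against 172 CPM), that of Fasn beside it (54.4 against 56.8), and that of Scd2 far under its own. The control cross of Ebp lies below the axis.

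The airway classes differed from one another. Club-like cells (205 control and 263 Cre) had 1 higher and 3 lower of 11 measured fatty acid members, against 5.90% of genes higher and 5.08% lower, and 1 higher of 16 mevalonate members. Me1 stood at 33.8 CPM in control and 94.9 in Cre club-like cells, a ratio of 2.80 (2.40 to 3.29), and Fdft1 at 11.3 and 30.1. Acss2, which makes acetyl-CoA from acetate, stood at 22.5 and 18.8 CPM and Elovl1 at 28.1 and 22.5, so their lower calls rest on a class median of 0.48. Scd1 stood at 89.5 and 59.4 CPM, of which free AT2 RNA would bring 50.5 and 20.9. Erythroid markers summed to 113 and 2229 CPM in club-like cells, classical monocyte markers to 71.5 and 522 and neutrophil markers to 889 and 213. Of the 12 club markers 6 were lower and 3 higher, among them Muc5b (254 and 2509 CPM) and Reg3g (966 and 9210). The part of these differences in the members' values was not tested.

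In ciliated-like cells (98 control and 81 Cre) 3 of 7 fatty acid members were lower, against 6.10% of genes lower and 5.16% higher, and the arm's median was -0.51. Scd1 stood at 166 CPM in control and 47.8 in Cre, beside 73.1 and 19.9 from free AT2 RNA. Elovl1 stood at 86.7 and 51.9 CPM and Acly at 55.3 and 38.7. In the mevalonate arm Hmgcs1 (286 and 174 CPM) and Idi1 (70.2 and 46.2) were lower and Pmvk was higher. The regulators Insig1 (89.2 and 41.2 CPM) and Srebf1 (48.7 and 28.0) were lower too, so that 8 members in all were past the threshold in this small class. Erythroid markers summed to 135 and 5503 CPM there, classical monocyte markers to 130 and 1083, alveolar macrophage markers to 799 and 2093 and club markers to 238563 and 161431, and their part in these values was not tested.

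Over the 22 classes without erythroid-like cells, 439 pairs of member and class were measured, 43 higher and 29 lower, against 5.50% higher and 5.45% lower of all 143951 pairs of gene and class. At the lower of their levels, 30 of the 43 and 26 of the 29 would still reach 50 UMIs. The others, in AT1-, ILC2-, smooth muscle-, lymphatic-, venous-, cDC2-, interstitial macrophage-, neutrophil- and adventitial fibroblast-like cells, were measured only through the library in which they are high, so these counts are a description. In all, 10 members were between the thresholds wherever they were measured. Hmgcs1 was higher in 8 of 21 classes, in 4 of which it was measured only through its Cre level, and lower in ciliated-like cells. In ILC2-like cells, the lung's group of innate type 2 lymphoid cells, 10.0% of genes were higher and 9.31% lower, on 639944 control and 1607808 Cre UMIs. Of the mevalonate arm Sc5d (40.6 and 117 CPM) was higher there. Hmgcs1 (5 and 56 UMIs) and Cyp51 (12 and 87 UMIs) were measured only through their Cre level, and 12 of the 17 members were not measured, so the count is not read. In neutrophil-like cells 3 of 7 mevalonate members were lower, against 6.54% lower and 5.23% higher, with Sc5d at 73.7 and 32.3 CPM. Of these 3, Cyp51 (56 control and 12 Cre UMIs) was measured only through its control level. The other 2 would still reach 50 UMIs at the lower of their levels. In classical monocyte-like cells 3 of 11 were lower (Idi1, Fdps and Cyp51), against 4.87% lower and 3.78% higher.

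In adventitial fibroblast-like cells 3 of 15 mevalonate members were higher and 2 lower, against 4.55% and 4.92% of genes, with Hmgcs1 at 109 and 220 CPM. Of the 2 lower, Dhcr7 (30 control and 25 Cre UMIs) was measured only through its control level. In alveolar fibroblast-like cells Lpin1 stood at 41.0 and 101 CPM and was higher with Me1, while Scd1 (67.2 and 41.8, beside 49.2 and 28.0 from free AT2 RNA) was lower, as 2 higher and 1 lower of 14 against 7.74% and 5.97%. This class joined a deep cluster (330 control and 795 Cre cells) and a shallow one (517 and 603). Its median depth was 1083 UMIs in control and 2595.5 in Cre, and the part of this difference in the values was not tested. In NK-like cells Lpin1 (46.1 and 108 CPM) and Fasn (23.1 and 42.9 CPM) were higher, 2 of 9 against 3.95% higher and 4.78% lower. B-like and T-like cells had 0 members higher and 0 lower in either arm, out of 8 and 10 fatty acid and 15 and 16 mevalonate members, against 1.47% and 2.58% of genes higher and 3.16% and 3.49% lower.

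Among the other myeloid classes, cDC2-like cells (conventional dendritic cells) had Fads1 higher (10.0 and 20 CPM) of 7 fatty acid members and Idi1 higher (31.6 and 103 CPM) of 12 mevalonate members, against 8.76% of genes higher and 7.34% lower. The cluster of cDC2-like cells was led by Jchain and Igha, of the plasma cell marker list, and Igkc, ahead of Ccl17, Ccl22 and Cd209a. The part of plasma cell RNA in these values was not tested. In interstitial macrophage-like cells Scd2 (11.2 and 27.2 CPM) was higher and Scd1 (68.4 and 32.5, beside 35.1 and 22.4 from free AT2 RNA) lower of 8 fatty acid members, and Pmvk alone was higher of 9 mevalonate members, against 5.28% and 5.89%. Fads1 in cDC2-like cells and Scd2 in interstitial macrophage-like cells were measured only through their Cre level, so those 2 calls are not read against the shares. In nonclassical monocyte-like cells Hmgcs1 (31.9 and 58.6 CPM) was the 1 member past the threshold of 15 in the arms, against 3.96% higher and 5.12% lower. The count of higher mevalonate members was thus 11 of 17 in alveolar macrophage-like cells and at most 1 in these 3 classes, which had fewer measured members. This difference between classes was not tested. The arm's summed level stood at 284 CPM in control and 516 in Cre smooth muscle-like, 244 and 429 in ILC2-like and 206 and 336 in club-like cells. It was lower in Cre in neutrophil-, NK-, classical monocyte- and ciliated-like cells.

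Endothelial and mural classes had few calls. Hmgcs1 was higher in aerocyte-like cells (39.9 and 67.5 CPM; 6.66% of genes higher and 7.12% lower), in venous-like cells (23.5 and 65.5 CPM; 9% and 8.49%) and in smooth muscle-like cells (40.1 and 78.7 CPM; 11.7% and 10.9%). Venous-like cells also had Scd2 higher, and smooth muscle-like cells Acly and Insig1. Hmgcs1 in venous-like cells was measured only through its Cre level, as were Hmgcs1, Acly and Insig1 in smooth muscle-like cells. Those calls are therefore not read against the shares. In general capillary-like cells Fdps (39.9 and 23.7 CPM) was lower and the other 15 measured members of the arms were between the thresholds, against 4.59% higher and 5.64% lower. In lymphatic-like cells Acly was higher (48.2 and 83.0 CPM) and Scd1 lower (81.7 and 23.4, beside 45.4 and 12.3 from free AT2 RNA). Both were measured only through the library in which they are high, so they are not read against the shares of 9.50% higher and 8.37% lower. In mesothelial-like cells Scd1 (138 and 86.9 CPM, beside 57.8 and 46.0 from free AT2 RNA) and Scd2 (96.5 and 54.5) were lower of 11 fatty acid members, against 3.17% higher and 3.26% lower.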

How the data were processed

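Single-cell libraries (10x Chromium 3' v3) of total lung were aligned to mm10 with Cell Ranger 3.1.0 and STAR, per the submitters' processing notes, and the software version in the matrix header is 3.0.0. The deposited matrices hold raw whole-number UMI counts, 1 for each gene in each barcode. Strand use in counting is not given in the sources used here. The deposited gene and barcode lists carry names with no measurement.

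Barcodes with at least 200 genes, at least 500 UMIs and at most 20% mitochondrial UMIs were kept, and Scrublet doublets (394 control, 435 Cre) were removed. Scrublet was run through scanpy 1.11.5. Both libraries were clustered together (2000 variable genes without the genes of these pathways, 30 components, 15 neighbours, Leiden resolution 1). The clustering used scikit-learn 1.9.0, igraph 0.11.9 and leidenalg 0.10.2. Clusters were named from 38 marker lists. The cut-offs of the naming score (a mean of 2.5, and 2 with a share of 0.38 for mixed clusters) were set after seeing the data, and names rebuilt in this way may differ from the study's. Classes needed 50 cells in each library.

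UMIs were summed per class and library. There is 1 library per genotype, each a pool of 3 mice, so no test was run and genotype and library cannot be told apart. Ratio intervals are exact conditional 95% Poisson intervals. They cover counting error only. Scripts were tested on simulated class sums. Values were given for members past 1.5-fold in AT2-, AT1-, club-, ciliated- or alveolar macrophage-like cells and for the 8 highest in AT2-like cells; other pathway genes were named if past 1.5-fold in AT2-like cells. Genes outside that rule were named after their values were seen. The members and lists were chosen with earlier results of these data known. Promoter windows are from RefSeq (GRCm38.p6). Gene positions are from the annotation of that build. Fdps shares its strand with the overlapping Gm43738, which held at most 0.110 CPM in the alveolar macrophage-like cells. Some genes of sterol handling are not reported here.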

Additional observations from a re-analysis of the deposited data

Results flagged for a closer look

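Some members lay past the threshold upward in one class and downward in another, and none of these differences between classes was tested. The log2 ratio of Scd1 less the all-gene median was 1.76 in AT1-like cells, -1.03 in club-like and -1.86 in ciliated-like cells. The Cre level of Scd1 in AT1-like cells was under its AT2-like level scaled by Sftpc, and the source of that Sftpc was not tested. For Hmgcs1 the AT1-like value was 1.2 and the ciliated-like value -0.87. For Idi1 it was 0.85 in alveolar macrophage-like and -0.72 in ciliated-like cells. Fdps was at 1.04 in alveolar macrophage-like and -0.61 in AT2-like cells, the only member of the mevalonate arm with opposite calls in those classes.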

How the results depend on the processing

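No paired analysis was possible because each genotype had 1 library. Of 330 comparisons of 39 named member values with an alternative, 294 lay within the counting interval of the reported value and 30 lay outside it with the same sign. In 3 the sign of a value between the thresholds turned. The sign of a called value turned in 3 more: Scd1 in AT1-like cells was at -0.36 when cells were named one by one from their markers, and after thinning to 1000 UMIs Elovl1 in club-like cells was at 0.13 and Pmvk in ciliated-like cells at -0.24, both on fewer than the minimum of 50 UMIs. Of 33 called member values 19 lay inside the threshold in at least 1 alternative, 9 of them only after that thinning. In alveolar macrophage-like cells the median of the mevalonate arm was 0.29 after thinning to 1000 UMIs, with 2 members higher and 7 measured, and 0.46 with 20 CPM added, with 4 higher. At a 2-fold threshold 1 was higher. The fatty acid arm there had a median of -0.19 after that thinning, with 4 measured. In AT2-like cells the median of the fatty acid arm was 0.095 without subtraction of the all-gene median. In ciliated-like cells it was -1.86 over the 1 member with 200 or more UMIs. Of 272 other counts, 63 moved by over 1.5 times. Thinned to 1000 UMIs, no member of the mevalonate arm was measured in AT1-like or club-like cells, and none of the fatty acid arm in club-like or ciliated-like cells. AT1-like cells are limited by a low depth per cell (medians of 1004.5 and 982 UMIs) and club- and ciliated-like cells by their number. The restriction of alveolar macrophage-like cells by depth, their thinning to 5000 UMIs and the use of the largest cluster alone were chosen after seeing the data. The causes of these shifts were not tested.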

Other observations

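Clusters outside the 23 classes also carried the genes, and their values are given without a comparison of genotypes. Plasmacytoid dendritic cell-like cells (45 control and 43 Cre cells), too few for a class, had a mevalonate arm of 883 and 1235 CPM and a fatty acid arm of 342 and 547 CPM. An unnamed cluster of 393 Cre cells, whose leading gene was Spp1, had a fatty acid arm of 468 CPM and a mevalonate arm of 498 CPM. An unnamed cluster led by the cell cycle genes Pclaf, Birc5, Mki67 and Top2a (49 control and 65 Cre cells) had a mevalonate arm of 548 and 657 CPM and a fatty acid arm of 608 and 698 CPM. Its closest marker list was that of alveolar macrophages, with 13 markers at 2-fold or more over the median cluster. A second cell cycle cluster, led by Ube2c and Stmn1, held 28 Cre cells, with 2676 CPM of the fatty acid arm and 1299 CPM of the mevalonate arm. An unnamed cluster led by globin genes, with AT2 markers and Sox9, held 5 control and 39 Cre cells. The Cre cells had 4567 CPM of the fatty acid arm and 1052 CPM of the mevalonate arm.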
